A study of Mus musculus with 9 samples.

Results

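The genes described here are the parts of the proteasome and the E2 ubiquitin-conjugating enzymes, taken as 2 separate families. They were chosen by symbol alone in the annotation of the spotted clones: 38 genes whose symbol starts with Psm, a letter from a to g and a digit, and 23 whose symbol starts with Ube2, together 61 of the 8146 genes named on the array. They were read by 106 cDNA clones, 64 for the Psm genes and 42 for the Ube2 genes, out of 17664 spotted rows. All 61 had enough values to be tested, among 8106 genes tested in all, and none was lost to a filter.

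The proteasome is a barrel-shaped protease that degrades proteins tagged with ubiquitin. Its core particle is built from stacked rings of alpha and beta subunits, the proteolytic sites lie on beta subunits, and a regulatory particle at the end of the barrel recognises, unfolds and feeds in the substrate. The tag is attached by a cascade in which an E1 enzyme activates ubiquitin, an E2 enzyme carries it and an E3 ligase chooses the target. Several E2 enzymes serve a single process, such as the anaphase promoting complex in mitosis, while others work with many ligases.

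Prostate stroma was cut out by laser capture microdissection from male FVB mice of the CR2-TAg line, in which cryptidin-2 (Defcr2) regulatory elements drive SV40 large T antigen in neuroendocrine cells of the prostate. The invasive group held 6 mice of 24 weeks with invasive tumors and metastases, and the PIN group held 3 mice of 10 weeks with prostate intraepithelial neoplasia, a lesion that has not invaded; another PIN sample was not analysed here. Every mouse of both groups carried the transgene, and tumor stage and age cannot be told apart. RNA of each mouse was amplified in 2 rounds, labelled with Cy5 and hybridised to 1 dual-colour cDNA array against a Cy3-labelled pool of 4 PIN samples, without dye swap, so PIN samples were measured against a pool that contained them. The stroma was taken from a wider band around the epithelium in invasive cancer than in PIN lesions.

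Every value below is a log2 ratio of sample over pool, with the clones of a gene averaged on each array. A difference is the invasive mean minus the PIN mean, so a positive one means higher in invasive stroma. Genes passed at a Benjamini-Hochberg adjusted p below 0.15 over all genes tested with limma, the false discovery rate of the study. The p-values measure the spread between these mice. A ratio to a pool says nothing of how abundant a transcript is, so levels are not compared between genes.

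The arrays held 17189 to 17206 clone values each. Invasive replicate 3 correlated least with its group over all clones, at r from 0.256 to 0.56, against 0.4 to 0.769 among the other invasive arrays, and PIN replicate 4 correlated with PIN replicates 2 and 3 at 0.176 and 0.189, against 0.672 between those 2. Of all genes tested 3.75% passed as higher in invasive stroma and 1.89% as lower. Of 18 cycling-cell markers measured, 9 were higher in invasive stroma and none lower. The per-array medians of the 18 markers were 0.29 to 1.94 in invasive stroma and -0.18 to 0.23 in PIN stroma. Of 7 macrophage markers 6 were higher, of 11 fibroblast and pericyte markers 5 were higher, of 7 endothelial markers 2 were higher and of 4 smooth muscle markers 2 were lower. Among 4 neuroendocrine tumor markers Foxa2 was higher. That list had per-array medians of 0.37 to 2.32 in invasive stroma and -0.18 to 0.12 in PIN stroma. Of 7 epithelial markers, 1 lymphocyte marker and 1 skeletal muscle marker none passed. Since 5.64% of all genes tested passed, such counts in short lists say little. The epithelial medians were -1.42 to -0.54 on the invasive arrays, and -1.27, -1.11 and 0.65 on PIN replicates 2, 3 and 4. The ratios do not show whether the defining stromal markers were abundant. The part of these shifts in cell types in the results below was not tested, and in tissue samples fewer cells of a type and less RNA per cell cannot be told apart.

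Sign aside, the median size of the difference was 0.17 for the Psm genes, 0.14 for the Ube2 genes and 0.23 for all genes tested. None of the 38 Psm genes passed by limma, while 5.64% of all genes tested did. At that share a count of 0 among 38 genes says little by itself. Of the 38 genes 5 had an unadjusted p below 0.05 (13.2%, against 15% of all genes). At that p 1 of the 38 was higher in invasive stroma, against 9.18% of all genes tested. Lower at that p were 4 of the 38, against 5.8% of all genes tested. The median difference of the 38 genes was -0.06, against 0.02 for all genes tested. Of the 38 differences 17 were above 0 (44.7%, against 52% of all genes), a number that was 11 without PIN replicate 3. The median Psm value on an array lay between -0.13 and 0.15 in invasive stroma and between -0.09 and 0.03 in PIN stroma.

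The sizes of change compatible with these arrays can be read from the 95% intervals. The interval of the difference lay within 2-fold in either direction for all 36 Psm genes that encode a part, activator or assembly factor of the proteasome, as it did for 73% of all genes tested. The standard errors of the 38 differences ran from 0.17 to 0.31, so smaller changes would often not have been detected. A p that misses the threshold does not show that the levels were the same.

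**Figure D1:**
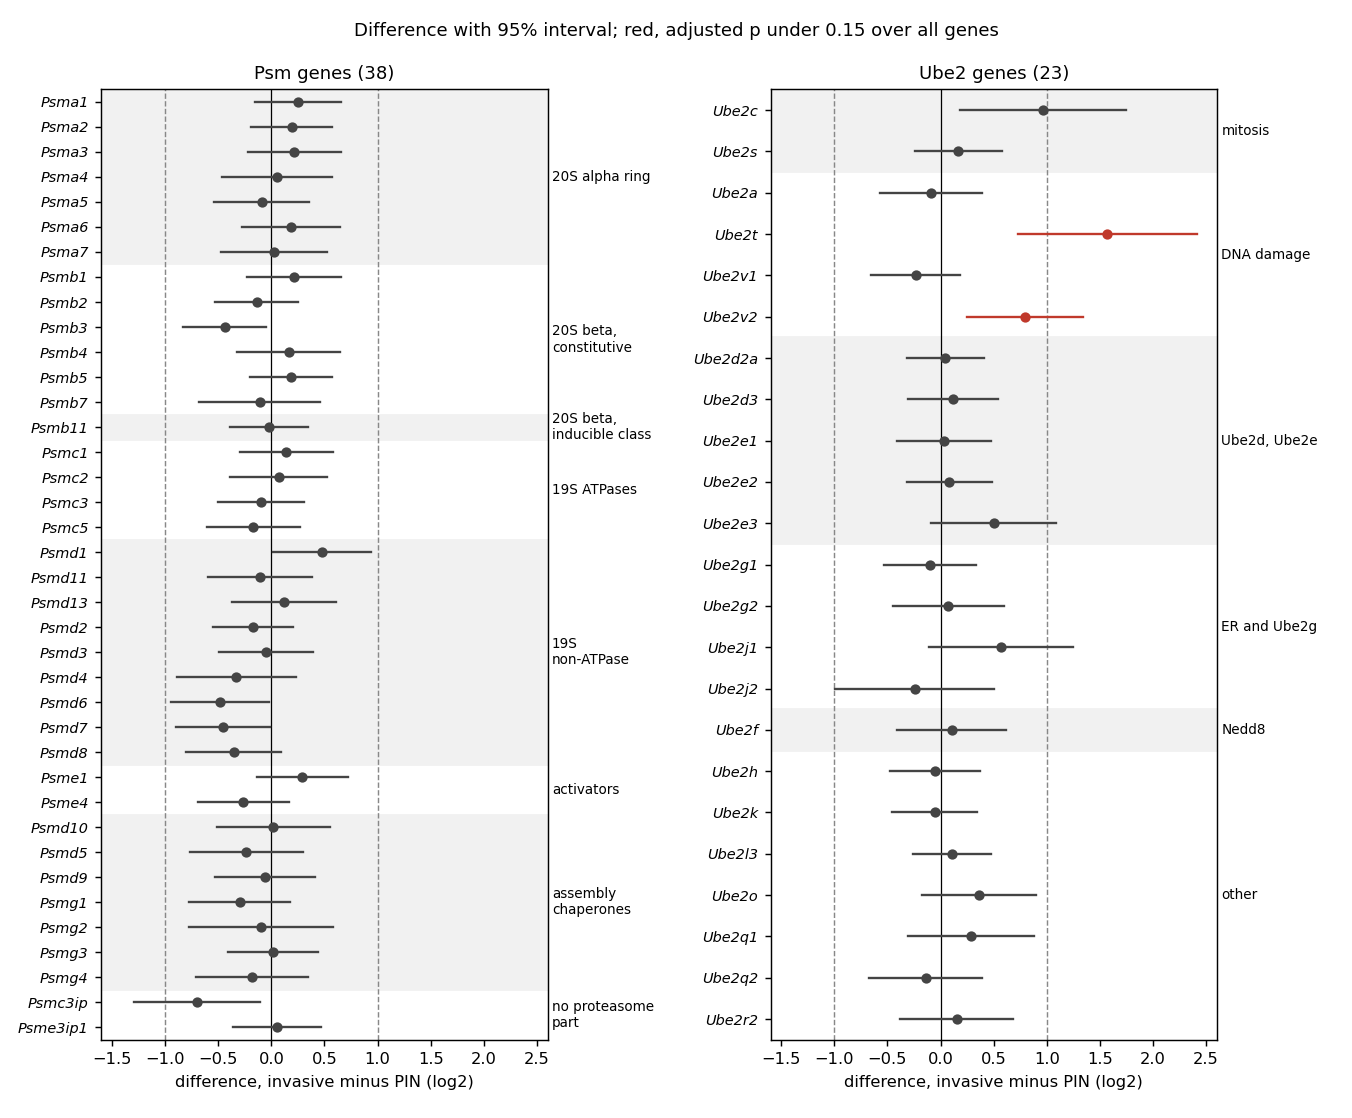
Difference in log2 ratio between invasive and PIN stroma with its 95% interval for each Psm gene (left) and Ube2 gene (right), grouped by role, with dashed lines at a 2-fold difference in either direction. The Psm intervals lie inside the dashed lines except that of Psmc3ip, which is no proteasome part, and only Ube2t and Ube2v2 (red) passed at an adjusted p below 0.15.

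The alpha ring forms the outer wall and gate of the core particle, and its 7 measured genes differed by -0.09 to 0.25, with a median of 0.19. Of these differences 6 were above 0 (85.7%, against 52% of all genes), and none had an unadjusted p below 0.05. The clones of Psma3, Psma4 and Psma7 had differences of both signs. Psma1, an alpha ring subunit, ranged from -0.09 to 0.53 in invasive stroma with a median of 0.14, against -0.03, -0.22 and 0.02 in the 3 PIN samples. The groups overlapped, and the difference of 0.25 ± 0.19 (SE) had an adjusted p of 0.588 by limma. Psma2, its neighbour in family, differed by 0.19 with an adjusted p of 0.689. On invasive replicate 1 the alpha ring genes had a median of -0.17, below the other invasive arrays, whose medians ran from 0.05 to 0.3.

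The beta ring carries the proteolytic sites. Its 6 measured constitutive genes differed by -0.44 to 0.21, with a median of 0.03. Psmb3, a beta subunit without a proteolytic site of its own, ranged from -0.23 to 0.04 in invasive stroma with a median of -0.18, against 0.26, 0.04 and 0.58 in PIN stroma. A single invasive array touched the PIN range, replicate 5 at 0.04. The difference was -0.44 ± 0.18 (SE) with an adjusted p of 0.265 by limma, and the interval ran from -0.83 to -0.05. Psmb1 differed by 0.21 (adjusted p = 0.695). The 2 measured catalytic subunits, Psmb5 with the chymotrypsin-like site and Psmb7 with the trypsin-like site, differed by 0.19 and -0.11, and neither passed. Psmb11, a beta subunit known from the thymus, was at -0.28 to 0.1 in invasive stroma and -0.1 to -0.02 in PIN stroma, with a difference of -0.02. The interferon-inducible subunits that replace the catalytic ones in the immunoproteasome were not analysed here, and the clone of the catalytic Psmb6 names a second gene and was left out, so no inducible subunit could be set against its constitutive partner.

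The ATPases of the regulatory particle, which unfold substrates, differed by -0.17 to 0.14 over the 4 genes measured, Psmc1, Psmc2, Psmc3 and Psmc5. All 4 had their highest value on invasive replicate 3, where their median was 0.46, while the other invasive medians lay between -0.19 and 0.13 and the PIN medians between -0.15 and 0.06. Psmc1 differed by 0.14 (adjusted p = 0.819) and Psmc5 by -0.17 (adjusted p = 0.769). Over the whole Psm family invasive replicate 3 held the highest value for 11 of 38 genes and PIN replicate 4 for 10. Over all 8106 genes tested they held it for 1177 and 1272, more than any other array.

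The non-ATPase subunits of the regulatory particle held the proteasome genes with the largest differences in both directions. Of these 9 genes 7 had a difference below 0, and their median was -0.17. Psmd1, a large scaffold subunit at the base of the regulatory particle, ranged from 0.21 to 1.02 in invasive stroma with a median of 0.33, against 0.01, -0.15 and 0.02 in PIN stroma. Every invasive sample lay above every PIN sample, which held for 4.86% of all genes tested. The difference was 0.48 ± 0.21 (SE) with an adjusted p of 0.313 by limma.

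Psmd6, a subunit of the lid that covers the regulatory particle, ran the other way. It ranged from -0.58 to -0.15 in invasive stroma with a median of -0.3, against -0.1, -0.12 and 0.61 in PIN stroma. Every invasive sample lay below every PIN sample, as for 2.99% of all genes, but the nearest values of the 2 groups were close and PIN replicate 4 stood far above the rest. The difference of -0.49 ± 0.21 (SE) had an adjusted p of 0.309 by limma, and without PIN replicate 4 it was -0.24.

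Psmd7, the lid subunit that pairs with the deubiquitinase of the lid, ranged from -0.59 to 0.14 in invasive stroma with a median of -0.38, against 0.21, 0.26 and -0.07 in PIN stroma. The groups overlapped through invasive replicate 1, and the difference of -0.46 ± 0.2 (SE) had an adjusted p of 0.315 by limma. Of the other lid and base subunits, Psmd8 differed by -0.35, the ubiquitin receptor Psmd4 by -0.33, Psmd2 by -0.17, Psmd11 by -0.11, Psmd3 by -0.05 and Psmd13 by 0.12, and all 6 overlapped between the groups. Together 2 of 38 Psm genes had groups that did not overlap (5.26%), against 7.85% of all genes tested.

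**Figure D2:**
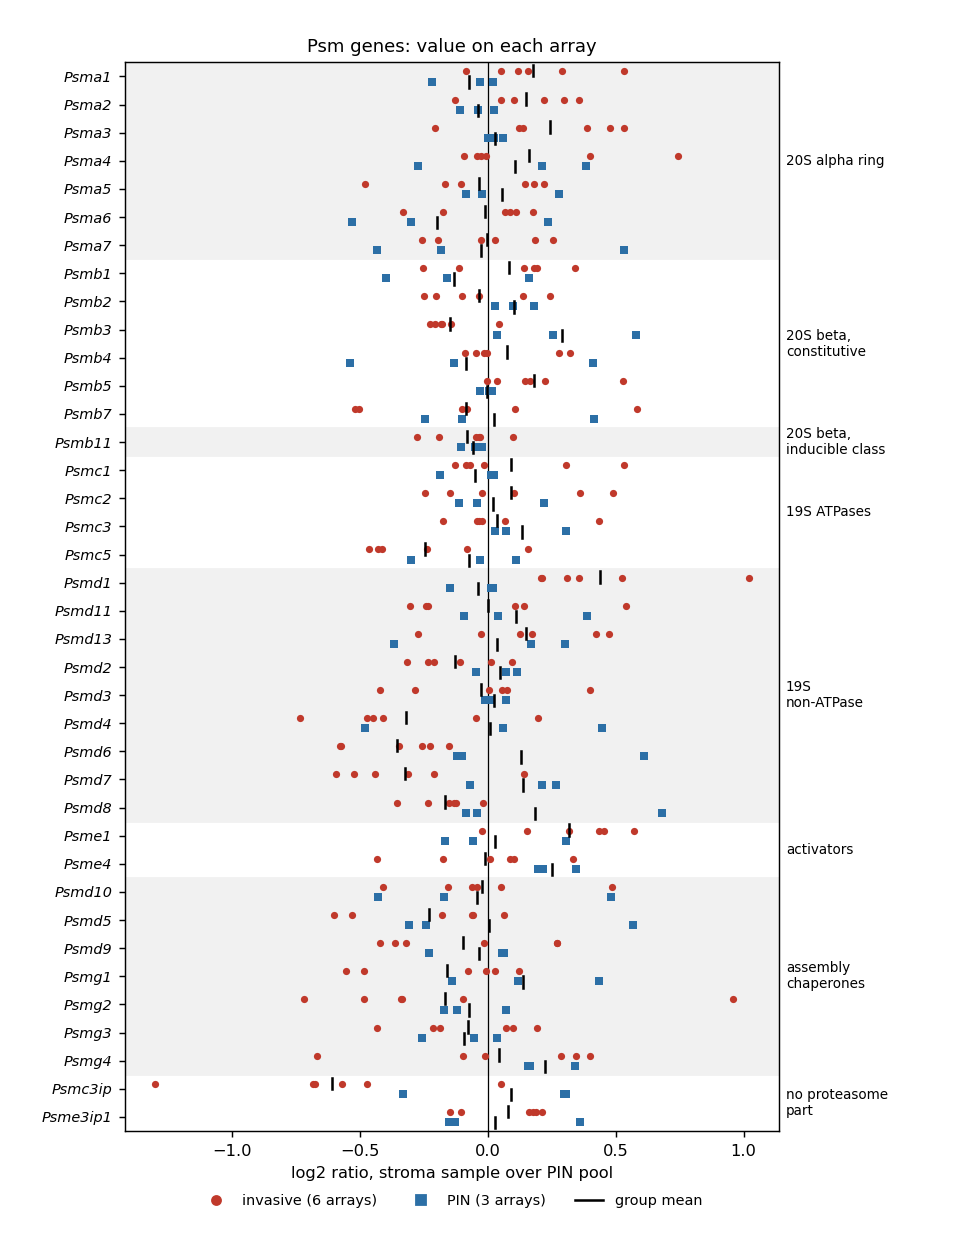
Log2 ratio of stroma sample over PIN pool for the 38 Psm genes on each of the 6 invasive arrays (red circles, upper line of each gene) and 3 PIN arrays (blue squares, lower line), with the group means as black bars. Only Psmd1 has all invasive values above all PIN values and only Psmd6 has all of them below.

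Activators that bind the ends of the barrel were represented by 2 genes. Psme1, a subunit of the interferon-inducible activator ring, ranged from -0.02 to 0.57 in invasive stroma with a median of 0.38, against -0.06, -0.17 and 0.31 in PIN stroma. The groups overlapped, with a difference of 0.29 ± 0.2 (SE) and an adjusted p of 0.544 by limma. Psme4, a large activator of ubiquitin-independent degradation, differed by -0.27 with an adjusted p of 0.593.

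The 7 assembly chaperones, which put the rings and the base together and then leave, differed by -0.3 to 0.02 with a median of -0.10. Psmg1, which acts as a pair with Psmg2 in building the alpha ring, differed by -0.3 (adjusted p = 0.585), and Psmd5, a chaperone of the base, by -0.23 (adjusted p = 0.73). Psmg2 had the widest invasive range of the Psm family, from -0.72 to 0.96 with a median of -0.34, against 0.07, -0.12 and -0.17 in PIN stroma. Its high value came from invasive replicate 3 alone.

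A pair of Psm symbols belong to no proteasome part. Psmc3ip, a cofactor of recombination in meiosis, ranged from -1.3 to 0.05 in invasive stroma with a median of -0.62, against 0.3, 0.3 and -0.33 in PIN stroma. It had the lowest difference of either family, -0.7 ± 0.27 (SE), with groups that overlapped and an adjusted p of 0.242 by limma. Without invasive replicate 3 the difference was -0.83 and passed, with an adjusted p of 0.0796, in a fit where 11.1% of all genes passed. Psme3ip1, whose product binds an activator subunit, differed by 0.05.

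Of 19 measured partners and shuttles, genes that work beside the proteasome, none passed, against 5.64% of all genes tested. At that share a count of 0 in so short a list says little. Rad23b, which carries ubiquitinated proteins to the proteasome, was nearest with a difference of 0.87 and an adjusted p of 0.1505, just past the threshold, and its groups overlapped. Akirin2, an import factor of the proteasome into the nucleus, differed by 0.51 (adjusted p = 0.315). Of 7 partners in antigen processing none passed either, with the chaperones Calr and Pdia3 at 0.5 and 0.43.

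Promoters of 31 Psm genes were found in the RefSeq table, as 300-base windows reaching from 250 bases before to 50 after the start. The antioxidant response element core (TGACNNNGC, either strand), which the proteasome regulators Nfe2l1 and Nfe2l2 bind, occurred in 3 of 31 (9.68%), against 14% of all genes with a promoter. The interferon-stimulated response element core (GAAANNGAAA, either strand) occurred in 5 of 31 (16.1%), against 3.99% of all genes. These 5 were Psmb3, Psmd4, Psmd9, Psme1 and Psmg4, and their differences in stroma were -0.44, -0.33, -0.06, 0.29 and -0.18. A match to letters is a description and not a binding site.

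Among the E2 enzymes a small number of genes were higher in invasive stroma. By limma 2 of 23 Ube2 genes passed, Ube2t and Ube2v2, both higher in invasive stroma (8.7%, against 3.75% of all genes tested that were higher and 1.89% that were lower). At an adjusted p below 0.05 none of the Ube2 genes passed, against 0.938% of all genes, and 3 had an unadjusted p below 0.05, all higher (13%, against 15% of all genes and 9.18% of all genes that were higher). The median difference was 0.10, against 0.02 for all genes, and 16 of 23 differences were above 0 (69.6%, against 52%). The 95% interval lay within 2-fold in either direction for 18 of the 23.

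Ube2t, the E2 that ubiquitinates the Fanconi anemia proteins in repair of DNA crosslinks, showed the largest difference of either family. It ranged from 0.28 to 2.50 in invasive stroma with a median of 1.13, against -0.57, -0.06 and -0.51 in PIN stroma. All 6 invasive samples lay above all 3 PIN samples, and invasive replicate 3 was the highest. The mean was 1.19 ± 0.76 (SD, n = 6) in invasive stroma and -0.38 ± 0.28 (SD, n = 3) in PIN stroma, a 2.97-fold difference of 1.57 ± 0.39 (SE) on the log2 scale with an adjusted p of 0.0742 by limma. Without invasive replicate 3 the difference was 1.31 (adjusted p = 0.0205), and without PIN replicate 2 or PIN replicate 3 it was 1.47 and 1.73 but did not pass (adjusted p = 0.269 and 0.177), in fits where 0.457% and 1.12% of all genes passed.

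Ube2c, the E2 that starts ubiquitin chains for the anaphase promoting complex, ranged from 0.51 to 2.36 in invasive stroma with a median of 0.78, against 0.14, 0.22 and -0.2 in PIN stroma. Here too every invasive sample lay above every PIN sample, and the 2 genes with such a pattern, Ube2t and Ube2c, made up 8.7% of the family, against 4.86% of all genes. The difference was 0.97 ± 0.36 (SE), and it did not pass in the fit with all arrays (adjusted p = 0.219 by limma). Invasive replicate 3 lay far above the other invasive samples, which ran from 0.51 to 1.10. Without that array, when 11.1% of all genes passed, the difference was 0.70 with an adjusted p of 0.0893. Ube2s, which extends the chains that Ube2c starts, differed by 0.17 (adjusted p = 0.755), and its groups overlapped.

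Ube2t and Ube2c were read by 1 clone each, and their promoters are shown with that of Psmd1, the proteasome gene with the highest difference, because all 3 had invasive values above all PIN values. The windows are RefSeq sequence of build GRCm38.p6, on the plus strand, at chr1:134962315-134962614 for Ube2t, chr2:164769679-164769978 for Ube2c and chr1:86064369-86064668 for Psmd1. Capitals mark the CHR core of mitotic genes (TTTGAA, either strand) and the CCAAT box (CCAAT, either strand). The CCAAT box was added to the search after the values were seen.
Ube2t: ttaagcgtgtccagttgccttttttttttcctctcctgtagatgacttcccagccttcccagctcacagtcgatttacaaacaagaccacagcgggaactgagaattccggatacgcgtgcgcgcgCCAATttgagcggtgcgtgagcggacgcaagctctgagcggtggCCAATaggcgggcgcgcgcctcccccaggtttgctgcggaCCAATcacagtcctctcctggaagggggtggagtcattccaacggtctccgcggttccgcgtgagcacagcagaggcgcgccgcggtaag
Ube2c: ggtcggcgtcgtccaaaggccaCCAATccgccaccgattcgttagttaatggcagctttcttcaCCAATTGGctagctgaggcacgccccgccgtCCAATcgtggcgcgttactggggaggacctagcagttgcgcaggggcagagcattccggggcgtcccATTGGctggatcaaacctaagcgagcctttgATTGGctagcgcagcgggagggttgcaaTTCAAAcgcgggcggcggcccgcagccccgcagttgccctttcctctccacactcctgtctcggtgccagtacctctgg
Psmd1: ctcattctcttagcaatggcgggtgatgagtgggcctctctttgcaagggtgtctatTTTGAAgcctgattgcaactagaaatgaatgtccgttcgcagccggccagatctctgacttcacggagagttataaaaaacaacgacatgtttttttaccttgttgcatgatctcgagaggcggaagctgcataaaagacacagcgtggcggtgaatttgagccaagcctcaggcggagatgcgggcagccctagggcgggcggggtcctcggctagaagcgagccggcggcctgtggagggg

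The CHR core occurred in the Ube2c window, on the reverse strand with its first base at -29 from the start, and in the Psmd1 window at -193, but not in the Ube2t window. It was present in 20.2% of all genes with a promoter and in 2 of the 18 Ube2 genes with one. CCAAT matched 3 times for Ube2t and 6 times for Ube2c, where matches on both strands overlap at 1 place. At least 1 match occurred in 33.3% of the 18 Ube2 genes and 41.9% of the 31 Psm genes, against 41.1% of all genes. At least 2 matches occurred in 16.7% and 22.6%, against 13.3% of all genes. At least 3 matches occurred in 3 of 18 Ube2 genes (16.7%) and 4 of 31 Psm genes (12.9%), against 3.88% of all genes. The distance from the share of all genes thus depended on the cut-off. The third Ube2 gene with 3 matches was Ube2f, which differed by 0.10 in stroma.

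Ube2v2 lacks a catalytic cysteine and acts as the partner of an E2 that builds chains for DNA damage tolerance. It ranged from -0.02 to 0.78 in invasive stroma with a median of 0.57, against 0.05, -0.14 and -0.85 in PIN stroma. The groups overlapped, since invasive replicate 5 lay below PIN replicate 2. The mean was 0.48 ± 0.32 (SD, n = 6) in invasive stroma and -0.31 ± 0.48 (SD, n = 3) in PIN stroma, a 1.73-fold difference of 0.79 ± 0.25 (SE) on the log2 scale with an adjusted p of 0.149 by limma, at the edge of the threshold. Ube2v2 was read by 1 clone, which did not pass when each clone was tested by itself (adjusted p = 0.237 by limma). Without PIN replicate 4, the lowest sample, the difference was 0.53 (adjusted p = 0.35). The closely related Ube2v1 differed by -0.24 and Ube2a, which works in the same tolerance pathway, by -0.09, and neither passed.

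The plot of these 3 genes by array sets them beside the cycling-cell markers. Invasive replicate 3 had the highest values of Ube2t (2.50) and Ube2c (2.36) and the highest median of the 18 markers (1.94). Invasive replicate 1 had the lowest of Ube2t (0.28), of Ube2c (0.51) and of the marker median (0.29) among the invasive samples. The same replicate 3 had the highest neuroendocrine marker median (2.32) and the lowest macrophage marker median among invasive samples (0.61, against 2.43 to 2.74 on the other invasive arrays). Its fibroblast and pericyte median (0.32, against 1.21 to 1.51) and endothelial median (0.32, against 1.14 to 1.64) were also the lowest of the invasive arrays. Its epithelial (-0.54) and smooth muscle (-0.39) medians were the highest of the invasive arrays. Within the neuroendocrine list Foxa2 and Ddc were highest on replicate 3, but Scg2 was lowest there (-0.51) and Scg3 (2.12) lay below replicates 2, 4 and 5. Invasive replicate 6 had the lowest neuroendocrine median of the invasive samples (0.37), with Ube2t at 1.15 and Ube2c at 0.97. Whether cycling or tumor cells in the dissected stroma bear on Ube2t and Ube2c was not tested.

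**Figure D3:**
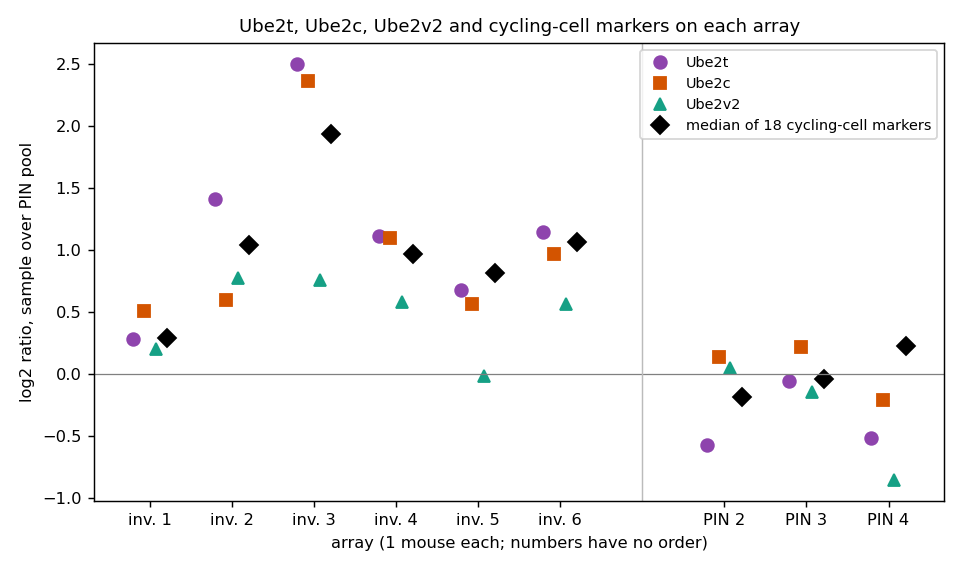
Log2 ratio of stroma sample over PIN pool for Ube2t (circles), Ube2c (squares) and Ube2v2 (triangles) and the median of 18 cycling-cell markers (diamonds) on the 6 invasive arrays (left) and 3 PIN arrays (right). Ube2t and Ube2c peak together with the marker median on invasive replicate 3, while Ube2v2 reaches no more than 0.78 on any array.

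The anaphase promoting complex is the E3 ligase that Ube2c and Ube2s serve. Of 17 measured genes of this complex and its partners, 3 were higher in invasive stroma by limma, as were 3.75% of all genes tested, and none was lower. These were the mitotic cyclin Ccnb2 with a difference of 1.52 (adjusted p = 0.0512), the spindle checkpoint kinase Bub1b with 0.99 (adjusted p = 0.0565) and the securin Pttg1 with 1.2 (adjusted p = 0.0981). All 3 are also among the cycling-cell markers, and none of them is a subunit of the ligase. The measured ligase subunits differed by -0.28 (Anapc7) to 0.38 (Cdc26), and none passed. The median over the 17 genes was 0.10, and the other 14 did not pass.

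Of the broadly acting Ube2d and Ube2e enzymes none passed. All 5 differences were above 0, from 0.03 to 0.50, though the clones of Ube2d2a, Ube2d3 and Ube2e1 had differences of both signs. Ube2e3 ranged from -0.04 to 0.96 in invasive stroma with a median of 0.15, against -0.51, -0.58 and 0.35 in PIN stroma. The groups overlapped, with a difference of 0.50 ± 0.27 (SE) and an adjusted p of 0.421 by limma. Ube2d3 differed by 0.11 (adjusted p = 0.85), and the interval of Ube2d2a, read by 4 clones, ran from -0.32 to 0.40.

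Among the E2 enzymes of the endoplasmic reticulum, which mark misfolded proteins for degradation, Ube2j1 and Ube2j2 differed in sign. Ube2j1 ranged from -0.45 to 1.14 in invasive stroma with a median of 0.69, against -0.29, 0.03 and 0.11 in PIN stroma. In 5 of 6 invasive samples it lay above every PIN sample, and replicate 3 was the exception. The difference was 0.57 ± 0.31 (SE) with an adjusted p of 0.426 by limma, and without invasive replicate 3 it was 0.76 and passed (adjusted p = 0.105), as did 11.1% of all genes. Ube2j2 differed by -0.24 ± 0.34 (SE) and spread from -1.0 to 0.74 in invasive stroma, against 0.02, -0.25 and 0.82 in PIN stroma. Ube2g1 and Ube2g2 differed by -0.1 and 0.07.

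The remaining E2 enzymes gave no call. Ube2f, which carries the ubiquitin-like protein Nedd8, differed by 0.10 (adjusted p = 0.89). Ube2o, a large enzyme with both E2 and E3 activity, differed by 0.36 ± 0.25 (SE) and Ube2q1 by 0.29 ± 0.27 (SE), with adjusted p of 0.544 and 0.698 by limma. The lowest difference of this group was that of Ube2q2, at -0.14. Ube2r2, relative of the E2 of the cullin ligases, was at -0.64 on invasive replicate 6 and between -0.01 and 0.31 on the other invasive arrays, against 0.15, 0.01 and -0.57 in PIN stroma. The intervals of Ube2h, Ube2k and Ube2l3, the last an E2 of thioester-forming ligases, all lay between -0.47 and 0.47.

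**Figure D4:**
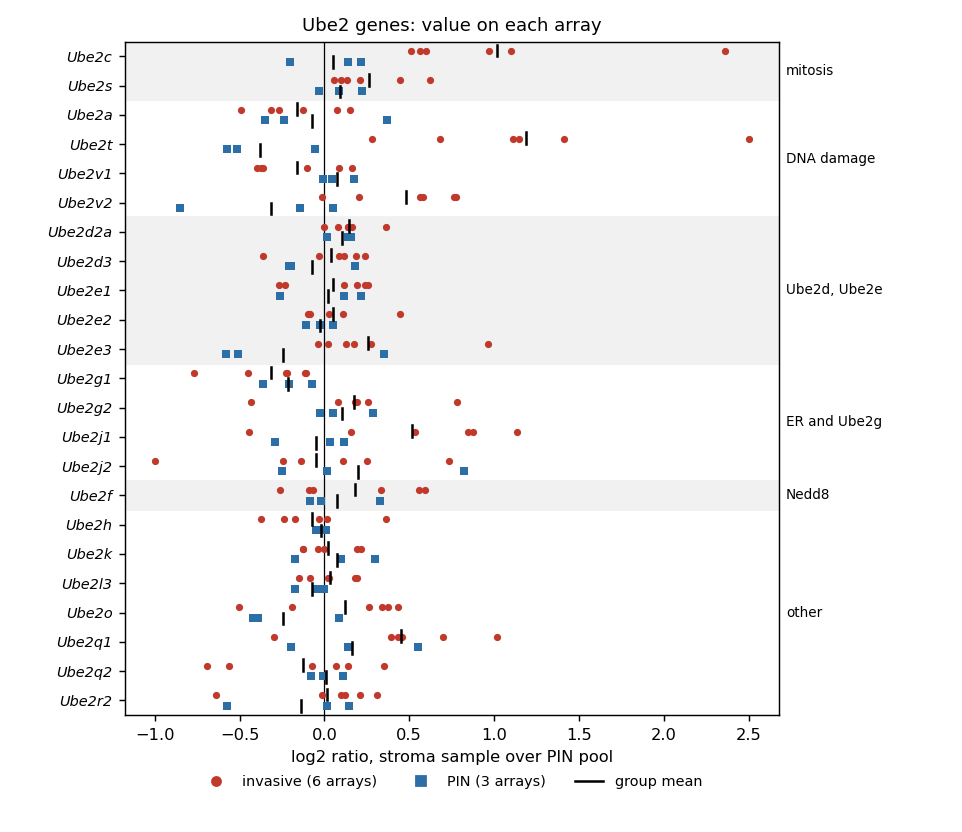
Log2 ratio of stroma sample over PIN pool for the 23 Ube2 genes on each of the 6 invasive arrays (red circles, upper line of each gene) and 3 PIN arrays (blue squares, lower line), with the group means as black bars. All invasive values lie above all PIN values for Ube2c and Ube2t, and the 2 groups overlap for the other 21 genes.

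Upstream of the E2 enzymes, none of the 6 E1 genes measured passed, with Mocs3, which activates a ubiquitin-like protein, at -0.62 (adjusted p = 0.224) and the ubiquitin E1 Uba6 at 0.36. None of 6 genes for ubiquitin and its relatives passed, with Sumo2 at 0.8 (adjusted p = 0.187) and the autophagy protein Atg12 at -0.45 (adjusted p = 0.351). Of 4 E2 genes named otherwise, the very large Birc6 was at -0.53 (adjusted p = 0.326) and Ufc1, the E2 of a ubiquitin-like protein, at -0.14, and none passed.

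Clones of the same gene did not always move together. Of the 61 genes 31 were read by more than 1 clone, and in 14 of these the clones had differences of opposite sign. The spread between the clones of a gene ran from 0.01 to 0.92, with a median of 0.26. Of the 4 clones of Psma3, 3 differed by 0.36 to 0.49 and the other by -0.43. Among 3 Psmd2 clones 1 differed by -0.61, with all invasive values below all PIN values, and the other 2 by 0.04 and 0.05. The 2 Ube2h clones differed by 0.37 and -0.47. By contrast the clones of Psma1, Psmc3 and Ube2r2 lay within 0.06 of each other. When each clone was tested by itself, none of 64 Psm clones and 1 of 42 Ube2 clones passed by limma, that of Ube2t, against 2.16% of all clones (1.52% higher and 0.639% lower). Averaged over its clones, Ube2h differed by -0.05. The other 30 genes had 1 clone each, so agreement between clones could not be checked for them. Among them were Ube2t, Ube2c, Ube2v2, Psmb3, Psmd1, Psmd6 and Psmc3ip.

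**Figure D5:**
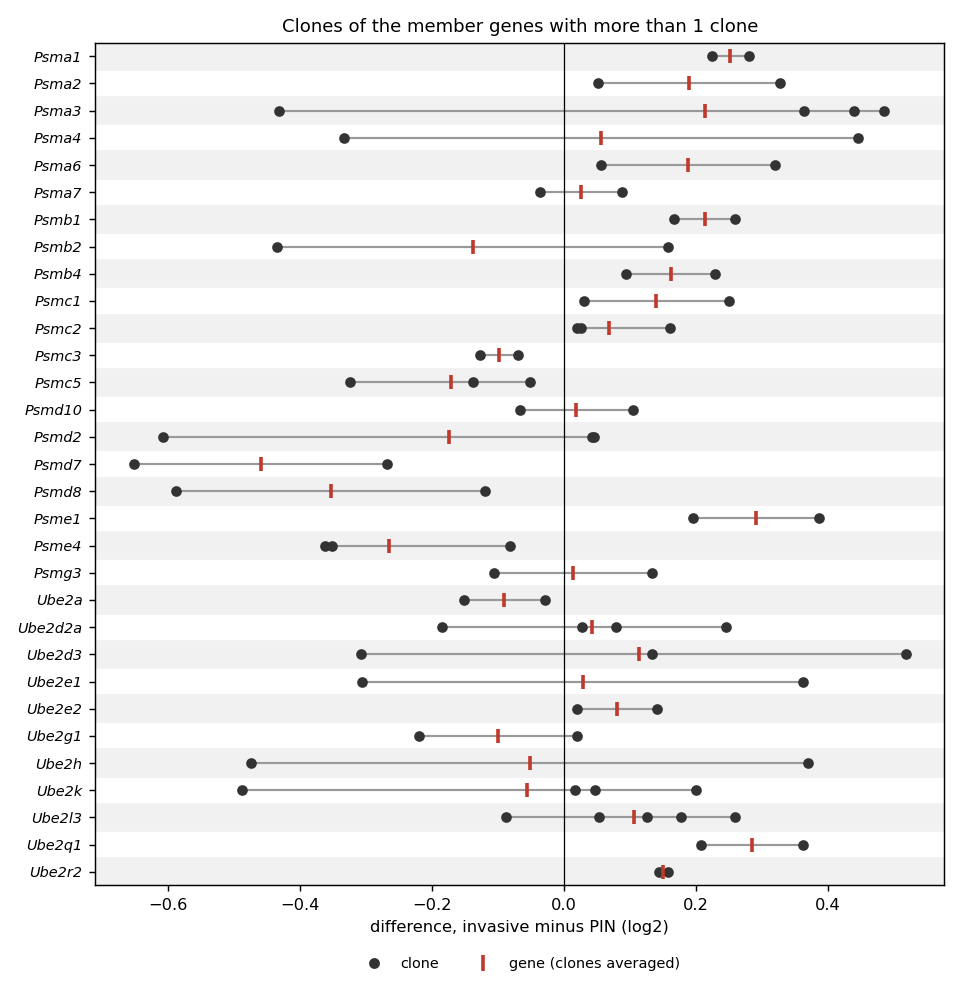
Difference in log2 ratio between invasive and PIN stroma for each clone (black points) of the 31 member genes with more than 1 clone, with the gene's difference after averaging (red bars). Clones of 14 genes fall on both sides of 0, with the widest spread for Psma3.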

How the data were processed

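Spotted cDNA arrays compared stroma of 6 invasive and 3 PIN mice. The deposited values were log2 ratios of sample (Cy5) over the PIN pool (Cy3), which the authors normalized by lowess within each print-tip group, leaving the background in; their direction was taken from the study's methods, and scanner intensities were not used here. Clones were named by the platform annotation, and clones naming several genes were left out, among them 1 each for the members Psmd2 and Psmb5 and the only clone found for Psmb6. Values were averaged over the clones of each symbol. Genes measured in 4 or more invasive and 2 or more PIN samples entered the limma test (version 3.58.1 under R 4.3.3, two-sided, moderated by eBayes), with Benjamini-Hochberg adjustment over 8106 genes. The fit was tested on simulated data. Members and lists were chosen with earlier results of these data known. Described members were those that passed, the 2 with the smallest p of each role group, the 3 highest and 3 lowest of each family and those with a single array apart, and of each pathway list the 2 with the smallest p and any that passed; others are named in passing. All 61 symbols had their gene ID in RefSeq, which also gave promoters (GRCm38.p6). Alternatives changed the test, normalization, filter, clone averaging, comparison value, threshold and arrays.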

Additional observations from a re-analysis of the deposited data

Results flagged for a closer look

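In 5 of the 61 genes (8.2%) 1 invasive array stood apart from the other 5, with a gap to its neighbour that was large against the whole invasive range. Chance alone gives this in about 1 of 20 groups, and 495 of 8090 genes with 6 invasive values showed it (6.12%). The gap took up 0.692 of the range for Psmb3, where invasive replicate 5 was high, and 0.629 for Psmg2, where replicate 3 was high. It took up 0.680 for Ube2c and 0.686 for Ube2e3, both high on replicate 3, and 0.658 for Ube2r2, which was low on replicate 6. The part of that replicate's cell makeup in these values was not tested.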

How the results depend on the processing

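The Psm count of 0 became 5 of 38 (13.2%; 2 higher, 3 lower) both with array weights, where 20.1% of all genes passed, and with the invasive arrays set against 0 (the pool), where 32.8% did. It was 0 to 1 when 1 array was left out, where 0.457% to 11.1% of all genes passed. The Psm median then ran from -0.11 to 0.01 and the Ube2 median from 0.074 to 0.13. The number of Psm differences above 0 ran from 11 (without PIN replicate 3) to 20 (replicate block) over all settings. The study's methods state a two-sample t-test without saying whether equal variances were assumed. The Ube2 count of 2 was 1 (4.35%) with its unequal-variance form (Welch), where 2.55% of all genes passed. The Ube2 count was also 1 with arrays scaled (4.61% of all genes), quantile normalized (3.97%) or centred on their medians (5.35%). With the most variable clone it was 1 as well (6.13% of all genes). It was 0 with an equal-variance t-test or an adjusted p below 0.05 (0.666% and 0.938% of all genes). With array weights it was 5 (21.7%, against 20.1% of all genes). Against 0 it was 7, with 6 higher and 1 lower (30.4%, against 32.8%). Leaving out 1 array gave 0 to 4, where 0.457% to 11.1% of all genes passed. The count of 4 came without invasive replicate 3 (17.4%, against 11.1%). Ube2t kept a difference of 1.19 to 2.06 with adjusted p of 0.00291 to 0.269, and Ube2v2 one of 0.47 to 1.02 with 0.0353 to 0.423. The cause was not tested.

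Replicate numbers 2, 3 and 4 occur in both groups, and the labels do not say whether same-numbered samples were handled together. Deviations of same-numbered arrays from their group means correlated at -0.137, -0.0489 and -0.0448. So few PIN arrays cannot show whether a batch was shared. With the replicate block 1 Ube2 gene and no Psm gene passed, against 1.11% of all genes, and among the 31 genes chosen for description Psmc5 (0.020), Psmg2 (0.25), Ube2j2 (0.0035) and Ube2q2 (0.11) turned sign. Without invasive replicate 3 and PIN replicate 4, a choice made after seeing the data, 2 Psm (5.26%) and 3 Ube2 genes (13%) passed, against 13.1% of all genes. The Ube2 median was then 0.048 and Ube2f (-0.051) turned sign.

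Other sign changes among those 31 genes were Psmb11 (0.0098) and Ube2j2 (0.056) with array weights and Psmb11 with scaled arrays (0.00062). With 1 array, or the 2 named, left out, differences ran from -0.058 to 0.035 for Psmb11, -0.39 to 0.046 for Psmd5, -0.037 to 0.22 for Psme3ip1, -0.37 to 0.015 for Psmg2, -0.051 to 0.23 for Ube2f, -0.47 to 0.068 for Ube2j2 and -0.067 to 0.29 for Ube2r2. Of the other 30 genes 24 turned sign in at least 1 setting, the farthest being Psma3 (-0.43 with its most variable clone), and none of them passed there.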
